A study of Mus musculus with 8 samples.

Results

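The genes described here are the potassium channel genes of mouse vagal ganglia: all protein-coding genes of GENCODE release M21 whose symbol starts with Kcn and whose counts summed to at least 80 over 8 libraries. Of 94 such genes 81 met this minimum, out of 55335 genes in the count table. The lowest totals above the minimum were 135 for Kcnh4 and 144 for Kcnq1, and the highest below it were 65 for Kcna10 and 58 for Kcnrg. The mice were wild type (WT) and had been challenged with saline or with HDM, which commonly stands for house dust mite, an allergen that is breathed in. Their vagal ganglia were collected 1.5 h after challenge number 4. Each group had 4 libraries, and each library pooled 6 to 8 ganglia of 3 to 4 mice. The labels give no strain, age or sex, and a batch number from 1 to 4 that puts 1 HDM and 1 saline pool together. Library totals, in mega-counts, ran from 23.95 to 26.67 in HDM and from 26.87 to 31.28 in saline.

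Potassium channels let potassium leave the cell, and so set the resting potential, end the action potential and limit repetitive firing. In sensory neurons, voltage-gated channels shape the spike and its threshold, calcium- and sodium-activated channels follow activity, and leak channels hold the resting potential, while the satellite glia that wrap each neuron take up potassium through an inward rectifier. Auxiliary subunits form no pore and change the traffic or gating of the pore subunits they bind.

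Pore subunits share a selectivity filter, a loop that strips water from potassium and passes it in single file, and the coding sequence of this loop is shown first because it is the part the channels have in common. A run of 5 codons was searched for: threonine or serine, then valine, isoleucine, leucine or threonine, then glycine, then tyrosine, phenylalanine or leucine, then glycine. The longest coding transcript of each member in GENCODE M21 (GRCm38) was used, and leucine was allowed at both places after a first search had missed known channels. The pattern was thus fitted to these members, and its count is a description of them. All 68 members classed by name as pore subunits held the run, and 0 of the 13 auxiliary members (Kcnab, Kcne, Kcnip and Kcnmb) did. All 11 Kcnk members held it 2 times, which goes with the tandem pore loops of that family. Of the 79 runs, 52 had tyrosine in the fourth place, 25 phenylalanine and 2 leucine. The lines below give 27 bases of coding sequence, 5′ to 3′, around the run, with the codons of glycine, the fourth place and glycine in capitals, for members that the results turn on.
Kcna2: atgacaactgtaGGCTATGGAgacatg
Kcnc4: atgacaacgcttGGCTATGGGgacatg
Kcnd1: atgaccacacttGGGTATGGAgatatg
Kcnf1: atgaccacagtgGGCTATGGTgacatc
Kcnh2: ctcaccagcgtgGGCTTTGGCaatgtc
Kcnj9: gagaccaccatcGGCTATGGGcaccgg
Kcnj10: cagaccaccatcGGCTATGGCttccgc
Kcnk3 first loop: atcaccaccatcGGCTATGGTcatgcg
Kcnk3 second loop: ctcaccaccatcGGCTTCGGCgactat
Kcnma1: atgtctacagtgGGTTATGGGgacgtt
Kcnt1: ttctcaactgtgGGCTTCGGTgatgtg
The capitals spell tyrosine in the middle in 8 of these 11 lines, and phenylalanine in Kcnh2, in the second loop of Kcnk3 and in Kcnt1.

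Levels were compared between genes as CPM per kilobase, that is, library-scaled counts (TMM factors) divided by the exonic length in the count table, given as mean ± SD over all 8 libraries. The highest means were those of 3 auxiliary subunits. Kcnab2, a cytoplasmic subunit of the Kcna channels, had 83.0 ± 4.07 CPM per kilobase, Kcnip4 49.6 ± 3.42 and Kcnip3 39.5 ± 2.89. Kcnip3 and Kcnip4 encode calcium-binding partners of the Kcnd channels. The range of Kcnab2 over libraries (78.1 to 89.5) lay above that of Kcnip4 (46.7 to 55.9), which lay above that of every other member. Next came Kcnip3, Kcna6, Kcna2, Kcna1 and Kcnd1, with means from 35.1 to 39.5 CPM per kilobase and ranges that overlapped between neighbours, so that their order was not resolved. Kcnab1, Kcnc4 and Kcnt1 followed at 28.4, 27.2 and 24.1 CPM per kilobase.

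Summed by subfamily, the 10 Kcnab, Kcne and Kcnip members held 29.1% of the potassium channel total in saline and the 6 Kcna members 16.4%. The 11 leak channels held 8.10% and the 5 Kcnq members 4.83%. Auxiliary Kcnmb genes were summed with the calcium- and sodium-activated group instead. Within most subfamilies a few members carried the level. Kcna1, Kcna2 and Kcna6 stood at 32.5 CPM per kilobase or more in every library, while Kcna3 and Kcna5 had means of 1.08 and 0.435. Kcnd1 and Kcnd3, which carry the fast transient A-type current, had 35.1 and 10.7, and Kcnd2 had 0.363. Kcnq3 was at 11.2 and Kcnq1, best known from heart and epithelia, at 0.160 CPM per kilobase. Among inward rectifiers the satellite glial gene Kcnj10 was highest (15.1 ± 1.47), and among leak channels Kcnk1 (16.8 ± 0.902). A deposited length that sums all annotated exons understates the level of genes with long alternative exons, and this was not corrected.

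**Figure D1:**
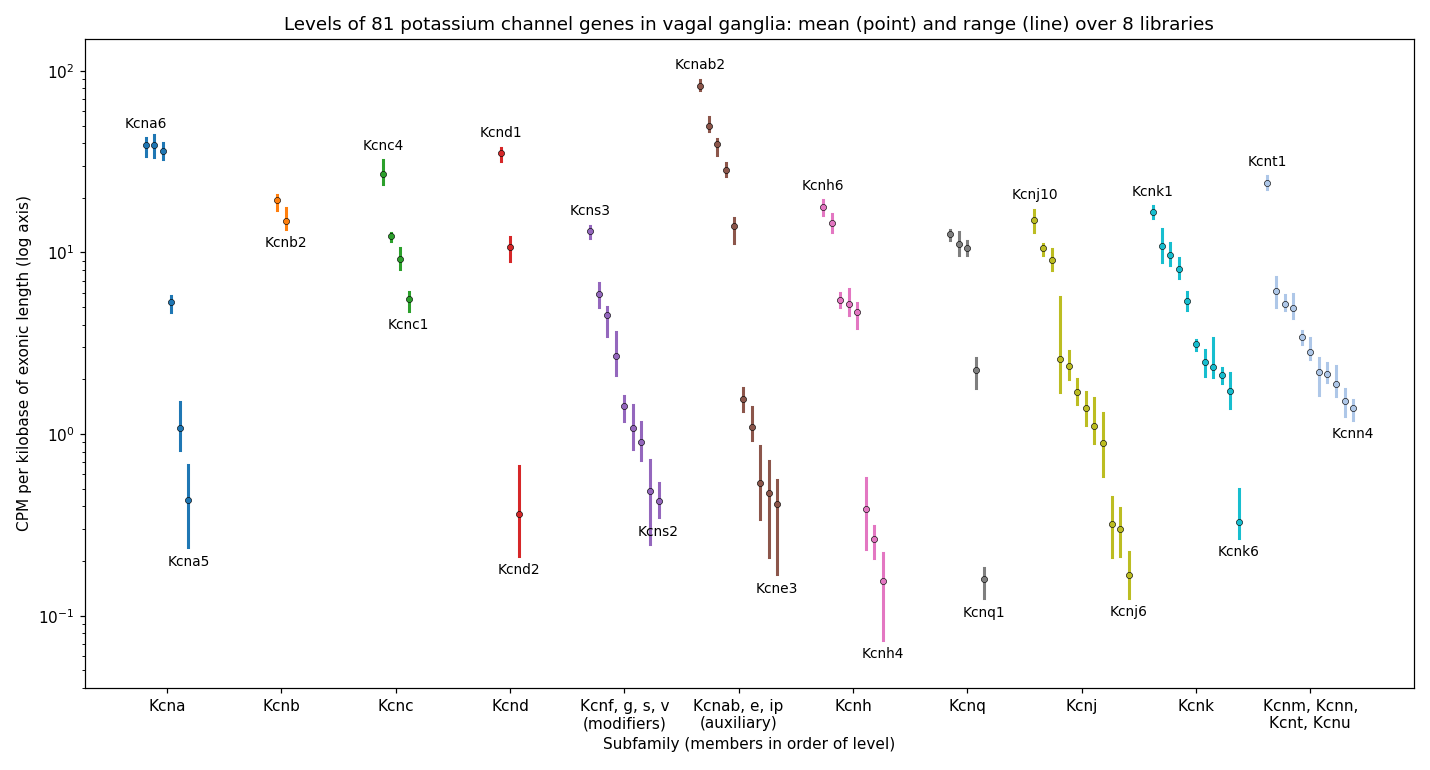
Levels of the 81 potassium channel genes by subfamily, in CPM per kilobase of exonic length on a log axis; each point is the mean and each line the range over 8 libraries. Kcnab2 stands highest at 83.0, and most subfamilies span more than a factor of 10 between their most and least abundant member.

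The comparison of HDM with saline asked whether transcripts of these channels differ 1.5 h after challenge number 4. An effect of the last challenge and a lasting effect of earlier ones cannot be told apart in this design. No member passed when groups alone were fitted: 0 of 81 had an adjusted p under 0.05 in edgeR's quasi-likelihood test, where 1.38% of all 17618 tested genes did, and 15 of 81 had an unadjusted p under 0.05, or 18.5% against a background of 18.1%. With the block 23 of 81 had an unadjusted p under 0.05, or 28.4% against a background of 20.9%. With the labelled batch number as a replicate block 5 of 81 passed, or 6.17% against a background of 4.05%: Kcnk3, Kcnh2 and Kcnc4 as higher (background 3.01%) and Kcnmb1 and Kcna2 as lower in HDM (background 1.03%). Deviations from group means correlated by −0.0484 to 0.0388 between pools of the same batch number, so the pairing in the block rests on the labels. DESeq2 also called 5 (background 4.94%), with Kcnj9 in place of Kcnc4, and limma-voom called 0 (background 1.21%), with 14 at an unadjusted p under 0.05 (background 18%). The differences were small. The median absolute log2 fold change was 0.093 over the members and 0.10 over all tested genes, and 38 members (46.9%) had a positive value against 48.5% of all genes. Replicates are pools, so p-values measure the spread between pools. In bulk ganglia fewer cells of a type and less RNA per cell cannot be told apart.

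**Figure D2:**
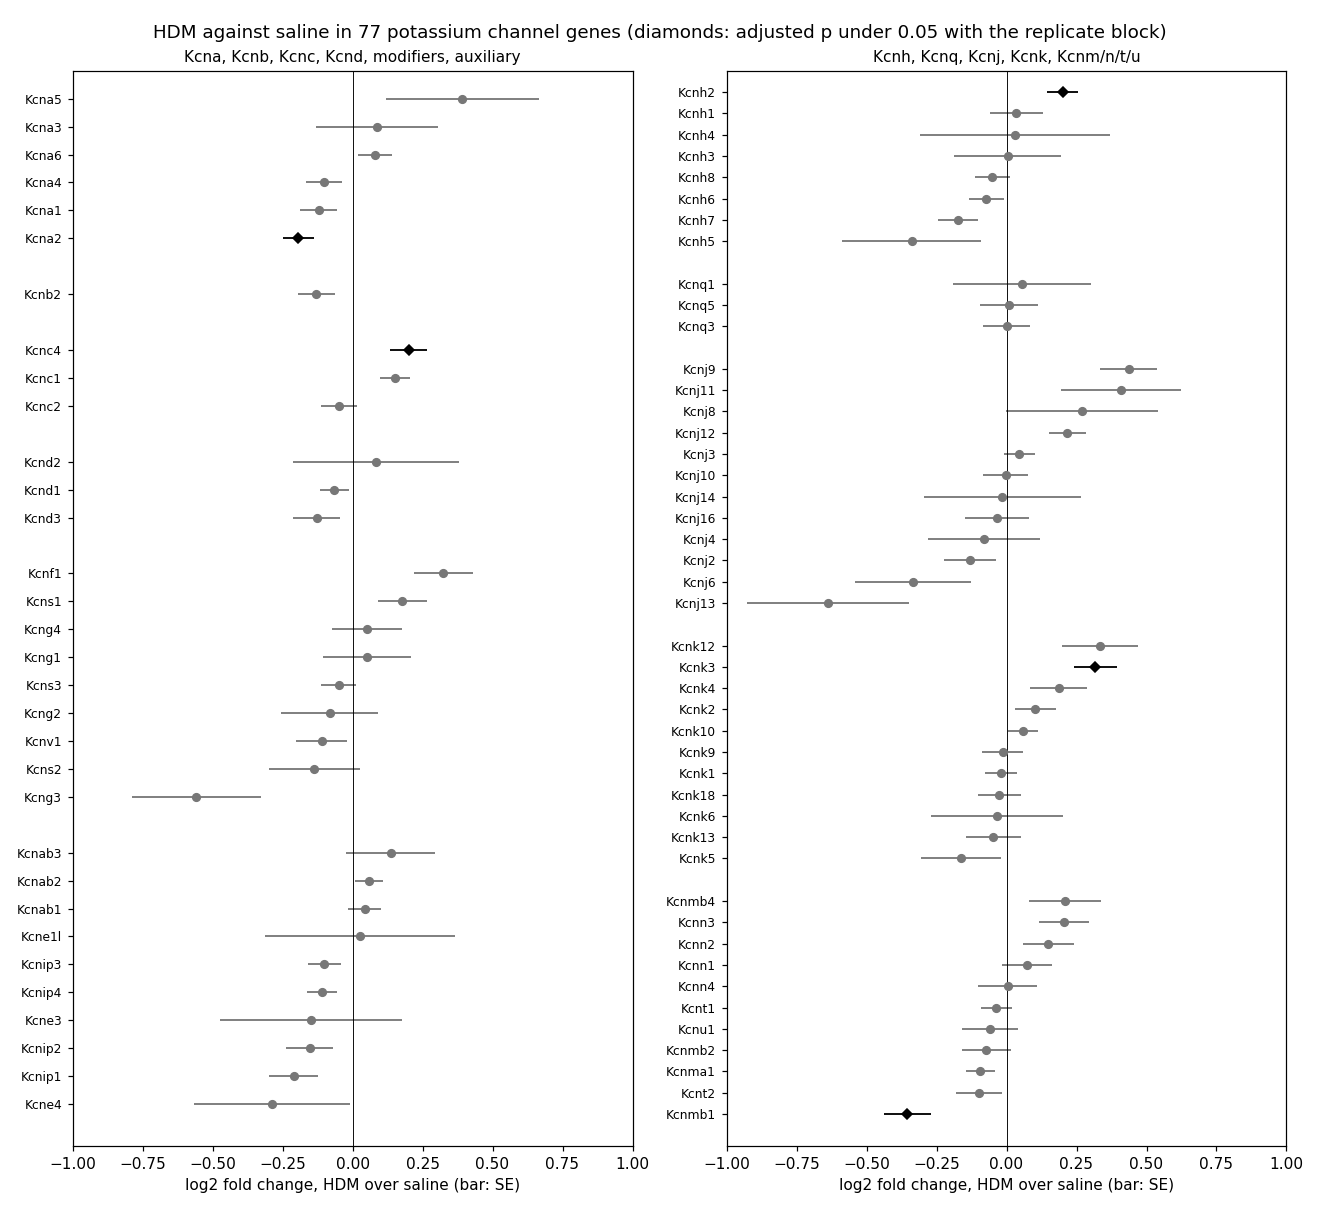
Log2 fold change of HDM over saline with its SE for 77 of the 81 potassium channel genes, in order of value within subfamilies; black diamonds are the 5 genes that passed with the replicate block and grey circles the rest. Bars widen in the less abundant members such as Kcnj13 and Kcng3.

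All 4 HDM libraries lay above all 4 saline libraries in 4 members, Kcnj9, Kcnk3, Kcnc1 and Kcnf1, against a background of 6.25% of all tested genes, and below them in 1 member, Kcna2, against 4.39%. As shares of the 81 members these are 4.94% and 1.23%, both under the background. Exons of 25 members overlap a gene on the opposite strand, among them Kcnj9, Kcnk3, Kcna6, Kcnd3, Kcnk1, Kcnk2 and Kcnma1, and with no stated strand setting the reads of such a pair cannot be told apart.

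Among the leak channels Kcnk3, an acid-inhibited channel of the tandem-pore family (GRCm38 chromosome 5, 30588170 to 30625271, plus strand), had the smallest adjusted p of all members with the block. Its levels were 50.2, 46.7, 42.2 and 53.5 CPM in HDM pools 1 to 4 and 36.0, 41.6, 35.5 and 41.4 CPM in saline pools 1 to 4. The HDM pools were all above the saline ones, though HDM 3 exceeded saline 2 by little. Group means were 48.1 ± 4.84 against 38.6 ± 3.34 CPM (SD, n = 4), and the log2 fold change was 0.32 (SE 0.076, edgeR adjusted p = 0.0575, or 0.0189 with the block). Kcnk3 overlaps the gene Gm9899 on the opposite strand. Its close relative Kcnk9, which can form mixed channels with it, averaged 66.2 ± 6.53 CPM (HDM) against 66.8 ± 5.72 CPM (saline) (log2 fold change −0.013 with SE 0.073), with overlapping groups. Kcnk2 was at 55.8, 45.1, 47.5 and 50.2 CPM in HDM and 50.4, 42.4, 43.5 and 48.7 CPM in saline, where HDM 1 and saline 1 were the highest of their groups. Kcnk2, Kcnk4 and Kcnk10, which respond to stretch, lipids and warmth, had log2 fold changes of 0.10, 0.19 and 0.059, each with HDM higher in 4 of 4 batches, and none passed in either fit. The share of all tested genes with the same direction in 4 of 4 batches was not counted. Here and below such counts are a description. Kcnk18, a calcium-regulated leak channel of sensory neurons, was at 25.2, 29.2, 26.9 and 29.9 CPM in HDM and 26.4, 28.0, 26.6 and 32.3 CPM in saline (fitted log2 fold change −0.026 with SE 0.076). Kcnk1 was at 38.2, 36.0, 36.0 and 38.7 CPM in HDM and 40.2, 36.3, 34.6 and 39.7 CPM in saline (fitted log2 fold change −0.020 with SE 0.058). In both genes the saline pools spread more widely than the HDM pools, and the groups overlapped. Kcnk5, a channel opened by alkaline pH, was at 11.5 CPM in saline 1 and at 7.04 to 8.19 CPM in the other 7 libraries, and its log2 fold change of −0.16 became 0.015 without saline 1.

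Among the inward rectifiers Kcnj9, a subunit of the channels that G proteins open below inhibitory receptors (GRCm38 chromosome 1, 172320501 to 172329318, minus strand), had the smallest p of all members without the block. It was at 7.28, 6.62, 6.32 and 7.29 CPM in HDM 1 to 4 and at 5.08, 4.88, 5.54 and 4.84 CPM in saline 1 to 4. The lowest HDM pool stood above the highest saline pool, yet the gene stayed just outside the threshold in edgeR (1.35-fold, log2 fold change 0.44 with SE 0.10, adjusted p = 0.0544 without and 0.0574 with the block). It overlaps the gene Gm36937 on the opposite strand. The partners with which it assembles did not share its value: Kcnj3 averaged 55.9 ± 2.08 CPM (HDM) against 54.2 ± 3.87 CPM (saline) (log2 fold change 0.045), and Kcnj6 1.14 ± 0.199 and 1.44 ± 0.217 CPM (log2 fold change −0.33 with SE 0.21). These 3 differences were not tested against each other. Kcnj12, a strong rectifier, had a log2 fold change of 0.22 (SE 0.066, edgeR adjusted p = 0.112), with HDM higher in 4 of 4 batches.

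Kcnj10, the potassium uptake channel of satellite glia, was at 74.7, 83.7, 81.7 and 86.9 CPM in HDM and 70.0, 89.5, 75.3 and 92.8 CPM in saline. The saline pools spread over a wider range that enclosed the HDM pools. The log2 fold change was −0.0032 with an approximate 95% interval from −0.16 to 0.16. Its partner Kcnj16 had −0.034 (SE 0.11). Kcnj8 was at 0.962, 0.800, 0.993 and 0.604 CPM in HDM and 0.920, 0.542, 0.547 and 0.779 CPM in saline. Kcnj8 and Kcnj11, pore subunits of the channels that close when ATP is plentiful, were rare, at 0.697 and 2.83 CPM in saline, with log2 fold changes of 0.27 (SE 0.27) and 0.41 (SE 0.21). Kcnj13 had the most negative value of all members, −0.64 (SE 0.29, edgeR adjusted p = 0.266), and this rested on saline 1, at 7.18 CPM against 2.24 to 3.76 in the other saline pools. Without saline 1 it was −0.21. Kcnj13 also lies across exons of Gigyf2 on the opposite strand.

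The erg channel Kcnh2, which carries a slowly deactivating current that steadies the resting potential (GRCm38 chromosome 5, 24319589 to 24351604, minus strand), was at 76.9, 79.4, 69.2 and 77.2 CPM in HDM 1 to 4 and 63.1, 64.5, 63.9 and 72.0 CPM in saline 1 to 4. Only saline 4 reached into the HDM range, above HDM 3. Group means were 75.7 ± 4.46 against 65.9 ± 4.14 CPM (SD, n = 4), and the log2 fold change was 0.20 (SE 0.056, edgeR adjusted p = 0.0902, or 0.0442 with the block). Without saline 4, the highest saline pool, Kcnh2 passed with no block, and leaving that pool out had to widen the difference. With any other library left out it did not pass (edgeR adjusted p from 0.0502 to 0.272). The other erg genes did not pass. Kcnh6, the most abundant Kcnh member per length, was at 57.1, 66.7, 65.2 and 57.4 CPM in HDM and 59.4, 65.4, 68.9 and 65.5 CPM in saline with wide overlap (log2 fold change −0.073 with SE 0.062). Kcnh7 had a log2 fold change of −0.17 (SE 0.072, edgeR adjusted p = 0.227) with HDM lower in 4 of 4 batches. Several Kcnq genes carry the muscarine-sensitive M current that brakes repetitive firing. Of the 5 measured, 0 passed in edgeR with or without the block, in DESeq2 or in limma-voom, and 0 had an unadjusted p under 0.05 in any of these. Their log2 fold changes ran from −0.00015 to 0.055, the narrowest range of any subfamily. Kcnq3 was at 167, 158, 144 and 189.7 CPM in HDM and 143, 156, 179 and 181 CPM in saline. The approximate 95% interval of its log2 fold change ran from −0.17 to 0.17. Its groups overlapped, and with a GC offset its value was 0.062.

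Among the Kcna genes, whose low-threshold channels sit beside the nodes of myelinated axons and in somata, Kcna2 (GRCm38 chromosome 3, 107101146 to 107115005, plus strand) had the smallest p of its subfamily. Its levels were 424, 438, 469 and 399 CPM in HDM 1 to 4 and 472, 476, 526 and 505 CPM in saline 1 to 4. The HDM pools were all below the saline pools, with little margin between HDM 3 and saline 1. The log2 fold change was −0.19 (SE 0.055, edgeR adjusted p = 0.0941, or 0.0379 with the block). Kcna1, which assembles with Kcna2, was at 156, 159, 192 and 155 CPM in HDM and 172, 174, 193 and 182 CPM in saline, lower in HDM in 4 of 4 batches, with HDM 3 far above the other HDM pools (log2 fold change −0.12, edgeR adjusted p = 0.351, or 0.122 with the block). Kcna6 was at 231, 238, 232 and 253 CPM in HDM and 202, 233, 217 and 251 CPM in saline, with the HDM pool the higher one in 4 of 4 batches and the groups overlapping (log2 fold change 0.079 with SE 0.061, edgeR adjusted p = 0.524). The cytoplasmic subunit Kcnab2 was at 558, 625, 607 and 574 CPM in HDM and 552, 573, 545 and 599 CPM in saline. Its groups overlapped, and its log2 fold change of 0.059 (edgeR adjusted p = 0.558) became −0.045 with a GC offset. Kcnab1 had 0.043 (edgeR adjusted p = 0.748).

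The Kcnc genes encode high-threshold channels that close fast and allow rapid firing. Kcnc4 (GRCm38 chromosome 3, 107438303 to 107459552, minus strand) was at 113, 108, 101 and 123 CPM in HDM 1 to 4 and 91.0, 94.5, 94.0 and 109 CPM in saline 1 to 4. Saline 4 overlapped the HDM range, but within each batch the HDM pool was the higher one (log2 fold change 0.20 with SE 0.066, edgeR adjusted p = 0.137, or 0.0301 with the block). Kcnc1 averaged 55.0 ± 2.51 CPM (HDM) against 49.5 ± 2.94 CPM (saline) without overlap (log2 fold change 0.15, edgeR adjusted p = 0.161), and Kcnc2 had −0.048.

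The delayed rectifier Kcnb2, a partner of many modifier subunits, was at 218, 225, 213 and 204 CPM in HDM and 219, 209, 266 and 248 CPM in saline (fitted log2 fold change −0.13 with SE 0.068). Its groups overlapped. Of the 9 modifier subunits, which form no channel alone and assemble with Kcnb subunits, Kcnf1 was at 14.4, 13.1, 12.8 and 17.4 CPM in HDM and 10.1, 12.1, 11.5 and 12.4 CPM in saline. All HDM pools were above the saline pools, and HDM 4 was the highest (log2 fold change 0.32 with SE 0.11, edgeR adjusted p = 0.133, or 0.090 with the block). Kcns3, the most abundant modifier per length, was at 37.9, 43.4, 43.4 and 38.8 CPM in HDM and 38.3, 44.4, 42.9 and 43.6 CPM in saline (fitted log2 fold change −0.050 with SE 0.063). Of the A-type genes, Kcnd1 was at 168, 184, 191 and 182 CPM in HDM and 175, 193, 190.1 and 199.6 CPM in saline. Kcnd3 was at 86.1, 102, 113 and 90.8 CPM in HDM and 92.9, 108, 117 and 111 CPM in saline. Their groups overlapped, with log2 fold changes of −0.065 (SE 0.051) and −0.13 (SE 0.084). Kcnip1 was at 9.29, 8.68, 10.1 and 8.49 CPM in HDM and 10.2, 11.3, 10.7 and 9.99 CPM in saline. All 4 Kcnip partners of these channels had negative values, from −0.21 in Kcnip1 to −0.10 in Kcnip3, and kept that sign with a GC offset, and 0 passed in edgeR with or without the block, in DESeq2 or in limma-voom. At an unadjusted p under 0.05 stood 1 of 4 in edgeR with groups alone (background 18.1%), in DESeq2 (background 16.8%) and in limma-voom (background 18%), and 4 of 4 with the block (background 20.9%). Kcnip1 had an edgeR adjusted p = 0.227.

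Of the calcium- and sodium-activated group Kcnmb1, an auxiliary subunit of the large-conductance calcium-activated channel (GRCm38 chromosome 11, 33963013 to 33973641, plus strand), was at 21.1, 21.1, 26.7 and 20.9 CPM in HDM 1 to 4 and 25.9, 30.6, 29.3 and 29.0 CPM in saline 1 to 4. HDM 1, HDM 2 and HDM 4 lay close together and below all saline pools, and HDM 3 lay above saline 1. The log2 fold change was −0.36 (SE 0.084, edgeR adjusted p = 0.0544, or 0.0294 with the block). Without HDM 3 it was −0.45 and passed with no block, but HDM 3 lay nearest saline, so leaving it out had to widen the difference. The same holds for saline 1, the lowest saline pool, without which Kcnmb1 also passed. With any other library left out it did not pass (edgeR adjusted p from 0.0724 to 0.179). Kcnmb1 is best known from smooth muscle. The 6 pericyte and smooth muscle markers summed to 107 to 131 CPM in HDM and 112 to 133 CPM in saline, 3 of 6 had a positive log2 fold change, and their part in the value of Kcnmb1 was not tested. The pore subunit Kcnma1 was at 81.9, 86.5, 88.1 and 84.8 CPM in HDM and 86.1, 86.3, 99.0 and 92.7 CPM in saline, with overlap (log2 fold change −0.093 with SE 0.051), and the other beta subunits Kcnmb2 and Kcnmb4 had −0.072 and 0.21. The small-conductance channels Kcnn1, Kcnn2 and Kcnn3, which follow bursts of spikes, had 0.072, 0.15 and 0.21, and none of them passed in either fit. Kcnn3 was at 21.5, 19.4, 18.5 and 24.7 CPM in HDM and 16.9, 18.2, 19.5 and 18.4 CPM in saline. The sodium-activated channel Kcnt1 was at 211, 225, 246 and 222 CPM in HDM and 233, 250.3, 229 and 215 CPM in saline (fitted log2 fold change −0.037 with SE 0.056). Groups overlapped in both.

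**Figure D3:**
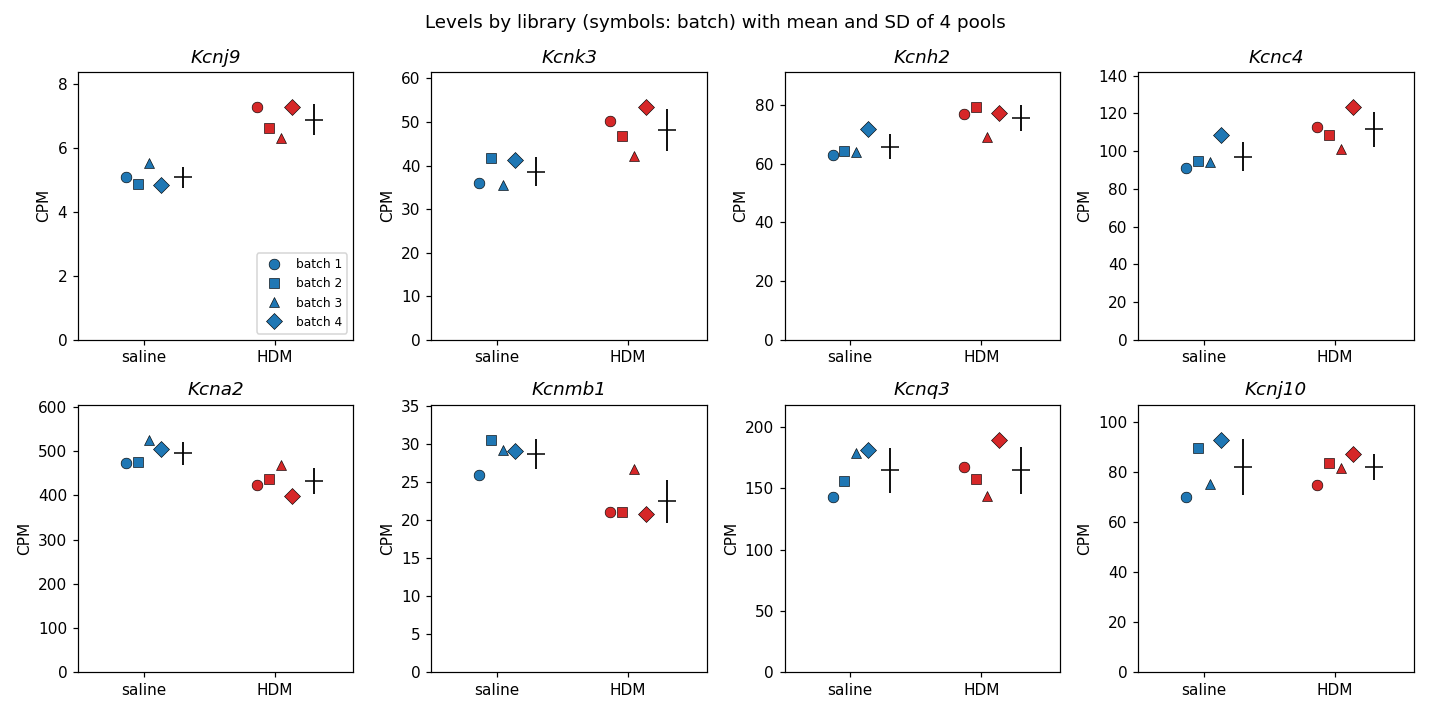
CPM of 8 potassium channel genes in each of the 4 saline and 4 HDM pools, with symbols for batches and mean ± SD beside the points; axes start at 0. Kcnj9 and Kcnk3 are separated upward and Kcna2 downward in HDM, Kcnh2, Kcnc4 and Kcnmb1 overlap in 1 pool, and Kcnq3 and Kcnj10 cover like ranges in both groups.

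Differences went with the base composition of the transcripts. Among the 40 members above the median GC content of 52.7%, 27 had a positive log2 fold change (median 0.047), and among the 41 at or below it 11 did (median −0.060). Over all genes with known GC content the same division gave medians of 0.081 (6169 genes) and −0.042 (11433 genes). Across the 81 members the correlation of log2 fold change with GC content was r = 0.43 (Spearman's rho 0.49), a description over genes that share the same 8 libraries. An offset per library for GC content is fitted to take out such a trend, so a low correlation after it follows from the fit. With the offset the correlation was 0.032 (rho −0.059). In edgeR 0 members then passed with or without the block, where 0% of all tested genes passed without the block and 0.176% with it. At an unadjusted p under 0.05 stood 16 members with the offset alone (19.8% against a background of 11.6%) and 18 with offset and block (22.2% against 14%). The sign of 20 of the 81 log2 fold changes changed with the offset, among them those of Kcnab2, Kcnc2, Kcnj10, Kcnj16, Kcnk9, Kcnmb2, Kcnn1 and Kcnq3. Of the genes with a blocked call or the smallest p, Kcnh2, at 60.9% GC, went from 0.20 to 0.061, Kcnc4 (59.6%) from 0.20 to 0.072, Kcnk3 (58.6%) from 0.32 to 0.20, and Kcnj9 (58.8%) from 0.44 to 0.32. The lower genes Kcnmb1 (46.6%) and Kcna2 (46.9%) had −0.31 and −0.15 with the offset, and their edgeR adjusted p with block and offset was 0.101 and 0.161.

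**Figure D4:**
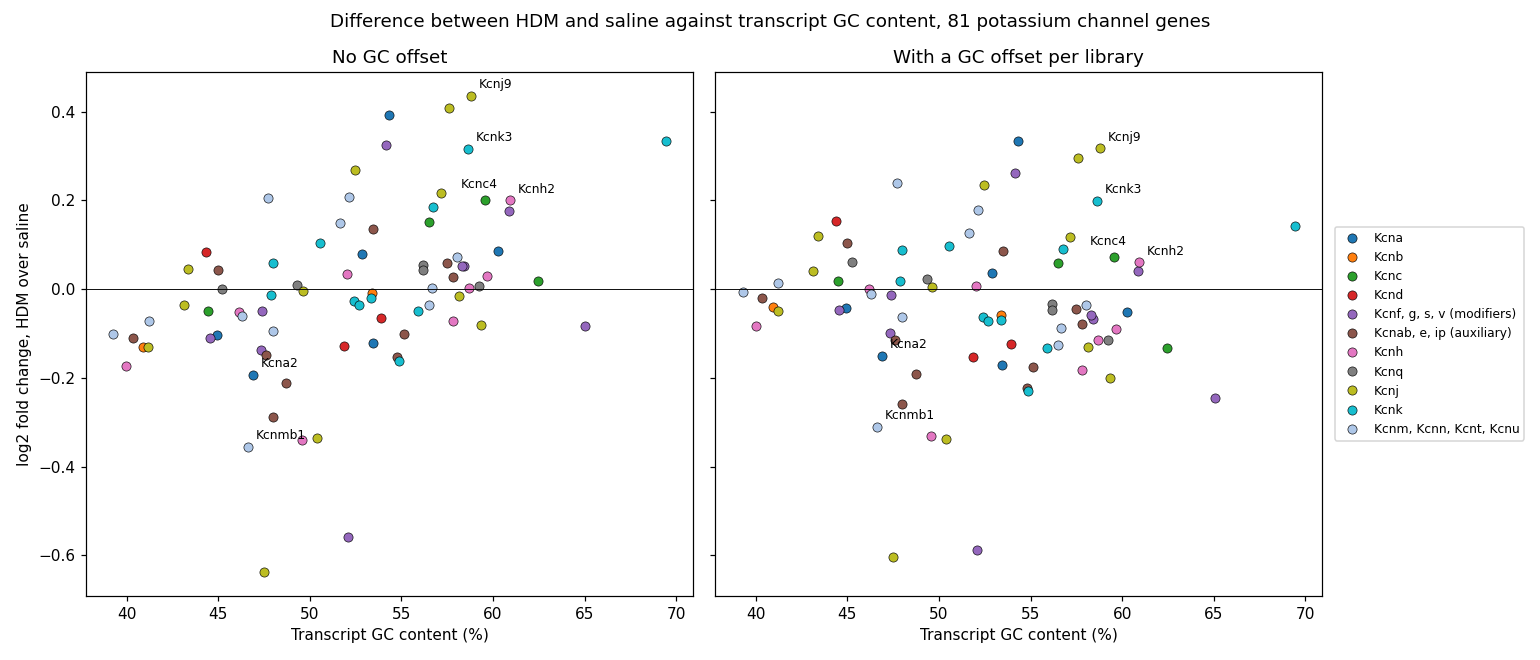
Log2 fold change of HDM over saline against transcript GC content in percent for 81 potassium channel genes, without (left) and with (right) a GC offset per library; each point is a gene, coloured by subfamily. The upward slope on the left (r = 0.43) is flat on the right (r = 0.032), which the offset is built to bring about. With the offset Kcnj9 stays at 0.32 and Kcnh2 lies near 0.

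Promoters were read from RefSeq (GRCm38.p6), where 58 of the 81 members matched by symbol, as the 250 bases before the start listed farthest upstream. In 34 of the 58 that start lay within 50 bases of the GENCODE gene's start. They were GC-rich, with a median GC content of 60.8% against 52.0% over 27025 promoters. The members are protein-coding and met a count minimum, while the 27025 were chosen neither by gene type nor by level. The shares below have the same limit. The GC box GGGCGG, searched on both strands, was in 51.7% of them and in 33% of all. The cyclic AMP response element TGACGTCA, a palindrome, was in 0 of 58 and in 1.6% of all, and its part TGACG, on both strands, in 20.7% and 17.8%. A match is a description of letters and not a bound site. The TATA box TATAAA, on both strands, was in 3.45% and 13%. The promoters of Kcnj9 and Kcnmb1 are shown, the members with the smallest p without the block in each direction. Kcnj9 (chr1:172329323-172329572, minus strand) holds 1 match of TATAAA, in capitals, nearer the upstream end of the 250 bases than the listed start. It has 5 CpG dinucleotides at 52.0% GC. Kcnmb1 (chr11:33962763-33963012, plus strand) holds none of the motifs and 1 CpG at 50.8% GC.
Kcnj9: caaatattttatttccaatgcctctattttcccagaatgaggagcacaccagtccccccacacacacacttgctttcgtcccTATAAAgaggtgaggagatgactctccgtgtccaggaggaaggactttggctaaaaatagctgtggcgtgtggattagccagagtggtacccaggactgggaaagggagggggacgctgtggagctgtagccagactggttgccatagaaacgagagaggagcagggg
Kcnmb1: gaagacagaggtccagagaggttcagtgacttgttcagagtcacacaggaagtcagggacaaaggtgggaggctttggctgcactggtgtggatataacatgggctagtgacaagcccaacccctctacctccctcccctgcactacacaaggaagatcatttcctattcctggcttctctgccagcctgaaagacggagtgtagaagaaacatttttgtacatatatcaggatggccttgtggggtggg

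Of 24 genes whose products bind or anchor potassium channels 21 were tested, and 0 passed in edgeR with groups alone (background 1.38%). At an unadjusted p under 0.05 stood 5, or 23.8% against a background of 18.1%. Their median log2 fold change was −0.023, against −0.0055 over all genes. DESeq2 called 2, or 9.52% against a background of 4.94%, and limma-voom 0 (background 1.21%). With the block Vapb passed as higher (1 of 21, or 4.76%, against a background of 3.01%). At an unadjusted p under 0.05 the blocked fit had 8 of 21, or 38.1% against a background of 20.9%. Vapb, which ties Kcnb clusters to the endoplasmic reticulum, was at 269, 268, 259 and 278 CPM in HDM and 239, 244, 236 and 253 CPM in saline with no overlap (log2 fold change 0.14 with SE 0.042, edgeR adjusted p = 0.10, or 0.0447 with the block). Dlg4, a scaffold that binds Kcna channels, was at 157, 155, 145 and 169.9 CPM in HDM and 138, 145, 137 and 147 CPM in saline (fitted log2 fold change 0.15, edgeR adjusted p = 0.143). Lgi1, a secreted partner of Kcna complexes, was at 77.7, 78.5, 73.5 and 68.3 CPM in HDM and 77.7, 84.4, 86.4 and 88.8 CPM in saline (fitted log2 fold change −0.18, edgeR adjusted p = 0.116). The Kcnd partners Dpp6 and Dpp10 had −0.010 and −0.22.

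Markers of the labelled tissue were present in every library, and some differed between the groups. The 7 sensory neuron markers summed to 7990 to 8572 CPM in HDM and 7578 to 7872 CPM in saline without overlap, and 1 of 7, Prph, passed as higher. Of these 7 markers 4 had a positive log2 fold change, while Snap25, Slc17a6 and Scn10a had −0.0025, −0.028 and −0.0041. All 5 nodose neuron markers had a positive log2 fold change (median 0.32, 0 past the threshold), with sums of 750.3 to 933 CPM in HDM and 772 to 863 CPM in saline. Of the 3 jugular neuron markers 1 had a positive log2 fold change (median −0.080, 0 past the threshold). They summed to 200 to 256 CPM in HDM and 228 to 263 CPM in saline. The 7 satellite glia markers summed to 3552 to 3843 and 3123 to 4308 CPM, with 1 of 7 lower, and the 7 myelinating Schwann cell markers to 2635 to 2895 and 2745 to 3353 CPM, with 1 of 7 lower (Pmp22) and 0 of 7 positive. The 4 fibroblast markers summed to 484 to 541 and 539 to 768 CPM, with 0 of 4 positive and 0 past the threshold. The 5 sympathetic neuron markers summed to 785.6 CPM in HDM 4, against 165.4 to 365.5 CPM in the other 7 libraries, with 0 of 5 past the threshold. All 5 had a positive log2 fold change (median 0.49). Slc18a1 did not share the high level in HDM 4, at 6.19 CPM against 4.72 to 6.36 CPM in the other libraries. HDM 4 was also the highest of all libraries for 12 members, where the other libraries were highest for 6 to 16. A gene taken for being highest in HDM 4 has to have a lower log2 fold change without that library, so these values are a description. Without HDM 4 the log2 fold change went from 0.084 to −0.36 in Kcnd2, from 0.41 to 0.27 in Kcnj11, from 0.32 to 0.22 in Kcnf1, from 0.21 to 0.12 in Kcnn3, from 0.32 to 0.26 in Kcnk3 and from 0.20 to 0.15 in Kcnc4. In the other 6 it went from 0.44 to 0.41 in Kcnj9, from 0.086 to −0.10 in Kcna3, from 0.079 to 0.049 in Kcna6, from 0.14 to 0.021 in Kcnab3, from 0.21 to 0.15 in Kcnmb4 and from −0.00015 to −0.075 in Kcnq3. Saline 1, the highest library for 7 members including Kcnj13 and Kcnk5, was also the highest library for markers of several other cell types. The 5 red blood cell markers summed to 246.5 CPM there and to 45.6 to 77.7 CPM elsewhere. Its sums were 768 CPM for fibroblast, 99.6 CPM for endothelial, 49.1 CPM for macrophage, 4308 CPM for satellite glia and 3353 CPM for myelinating Schwann cell markers, each the highest of the 8 libraries. The part of these cell types in the values of the channels was not tested.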

How the data were processed

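RNA of mouse vagal ganglia was measured in 4 HDM and 4 saline pools with a stranded mRNA kit and paired reads of 50 bp, per the labels' protocols. The authors deposited counts, whole numbers per gene that are not normalised, made with featureCounts on GRCm38 (mm10) per the submitters' processing notes. No aligner, version or strand setting is given in those sources. Reads of genes that overlap on opposite strands may therefore be counted together, which concerns 25 of the 81 members, and 2 overlap another gene on the same strand (Kcnab2 and Kcnk4). Library totals bound the precision: the median SE of a log2 fold change was 0.063 in the 40 members above 20 CPM and 0.27 in the 14 under 2 CPM. The exonic length in kilobases comes from another column of the authors' table.

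The default low-count filter of edgeR 4.0.16 (filterByExpr, under R 4.3.3) retained 17618 genes including all 81 members. Counts were scaled by TMM factors and groups compared with edgeR's 2-sided quasi-likelihood F-test, with Benjamini-Hochberg adjustment over all genes tested and a threshold of 0.05. SE is the log2 fold change divided by the root of F. The 95% intervals use this SE with a normal quantile, so they are narrower than the F-test would give. The labelled batch equals the replicate number and pairs the pools, so the fit with this replicate block stands beside the main one. The pairing comes from the labels: deviations from group means correlated by −0.0484 to 0.0388 between pools of the same number, and for 0 of 8 libraries was that correlation the highest. For the GC offset, log2 CPM was regressed on transcript GC content in each library with a natural spline (4 degrees of freedom), using genes whose mean log2 CPM exceeded 3. Other alternatives were DESeq2 1.42.0, limma-voom (limma 3.58.1), other size factors, 2 other filters and leaving out each library. In simulated counts for this comparison (17416 genes) the fit recovered 12 of 98 genes changed by 0.25 and 59 of 100 changed by 0.5 on the log2 scale, with 6 false calls.

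The members and gene lists were chosen with earlier results of these data known. Members given in every library are those called in either fit, the most abundant and the smallest p of each subfamily, and a list of genes of interest; 4 members are not reported by name here. Of the partner list they are those called and the 3 with the smallest p. Promoter sequences are from RefSeq and coding sequences from GENCODE M21.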

Additional observations from a re-analysis of the deposited data

Results flagged for a closer look

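In 5 of 162 groups of 4 pools, 1 pool lay far from the other 3, where chance gives about 1 in 20 groups. HDM 3 stood apart for Kcna1, at 192 CPM against 155 to 159 CPM in the other HDM pools, and for Kcnmb1, at 26.7 CPM against 20.9 to 21.1 CPM. Both genes were lower in HDM than in saline on average, and HDM 3 lay on the saline side. HDM 4 was low for the modifier subunit Kcnv1, at 16 CPM against 21.1 to 21.7 CPM. Saline 4 was high for Kcnh2, at 72.0 CPM against 63.1 to 64.5 CPM. Saline 1 was high for Kcnk6, a rare leak channel, at 2.06 CPM against 1.12 to 1.23 CPM.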

How the results depend on the processing

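Depth limited precision most in rare genes: the median SE was 0.27 in the 14 members under 2 CPM, against 0.063 in the 40 above 20 CPM. Counts of calls varied with the fit. Over all genes, 216 were higher and 28 lower in HDM. These counts were 603 and 268 with DESeq2, 421 and 301 with no filter, 531 and 182 with the replicate block, 0 and 0 with the GC offset, 21 and 10 with the block and offset together, and 0 to 288 and 0 to 88 when 1 library was left out. Of the potassium channel genes, 0 were higher and 0 lower. These counts were 3 and 2 with DESeq2, 1 (Kcnk3) and 2 (Kcna2, Kcnmb1) with no filter, 3 and 2 with the replicate block, and 0 to 2 and 0 to 1 when 1 library was left out. Without HDM 3 the calls were Kcnj9, Kcnk3 and Kcnmb1, without saline 1 Kcnmb1, and without saline 4 Kcnh2. Each time the library left out was the pool of its group nearest the other group, so the difference had to widen. Of the channel partners, 0 were higher and 0 lower. These counts were 1 and 1 with DESeq2, 1 and 0 with the replicate block, and 0 and 2 with no filter. The block changed no other call among the named genes.

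Some named genes near 0 changed sign. With the GC offset, alone and with the block, Kcnab2 had −0.045 and −0.044 and Kcnq3 0.062 and 0.059. Kcnj10 had 0.0042 with limma-voom, 0.0034 with the block, 0.0048 with the offset and 0.011 with both. When 1 library was left out, ranges that crossed 0 were −0.077 to 0.059 for Kcnj10, −0.075 to 0.059 for Kcnq3, −0.059 to 0.0056 for Kcnk1, −0.065 to 0.041 for Kcnk18 and −0.078 to 0.00052 for Kcnt1. The cause of these changes was not tested.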
